A study of Homo sapiens with 9 samples.

Results

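Genes for matrix-cutting metalloproteases and their inhibitors were followed in nascent RNA of PANC-1 cells, a human pancreatic cancer line, with and without CRISPR/Cas9 editing of KDM6A. The set holds every gene whose symbol is MMP, ADAM, ADAMTS or TIMP followed by a number and at most 1 letter other than P. Antisense names, ADAMTS-like names and names with the pseudogene letter P are therefore out. Pseudogenes without that letter stay in, and RefSeq lists ADAM1B, ADAM3A, ADAM3B, ADAM5, ADAM6 and MMP23A as pseudogenes. It has 72 of the 57733 genes listed: 24 MMP, 25 ADAM, 19 ADAMTS and 4 TIMP genes. Enough reads for testing were present for 47 of the 72, namely 13 MMP, 14 ADAM, 17 ADAMTS and 3 TIMP genes. No reads at all were counted for ADAM3B, ADAM6, MMP23A and MMP23B.

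The metalloproteases cut proteins outside the cell or at its surface with a zinc ion in the active site. MMPs degrade collagens, gelatin and other matrix proteins and are made as inactive precursors, ADAMs release the outer parts of membrane proteins such as growth factor precursors, and ADAMTS proteases trim procollagens, proteoglycans and microfibril proteins. TIMPs bind the active enzymes and block them. In pancreatic cancer, which is rich in matrix, MMP7 is known as a product of the ductal tumour cells, while several other MMPs come largely from stromal cells.

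WT was a control PANC-1 line that carried no guide RNA, and KO C22 and KO C28 were 1 clone each after editing of KDM6A, the gene of the histone demethylase UTX. Each line had 2 Bru-seq libraries, made from RNA labelled with 2 mM bromouridine for 30 min and taken with no chase, and 1 BruUV-seq library, for which cells also received 100 J/m2 of UV light, which stops polymerases along the gene. Because each genotype is 1 line or clone, a difference between clones and WT cannot be told apart from a difference between clonal lines. Nothing in the labels states that replicates came from separate cultures, so the p-values cover no more than the spread among these libraries. KDM6A itself stood at 65.7 to 425 CPM (read counts scaled to a common library size) in the 9 libraries, with log2 fold changes against WT of -0.01 (SE 0.57) for KO C22 and -0.35 (SE 0.57) for KO C28. Counts over a whole gene body cannot reveal a short edit, and so check neither clone's label. Estimated reads in genes came to between 14.4 and 31.1 M per library in 8 of the 9, and to 5.64 M in Bru-seq KO C28 replicate 2. In that library 46.5% of reads lay outside genes, against 9.93% to 20.01% in the others, and its correlation with the other libraries across genes was 0.746 to 0.837, against 0.862 to 0.973 among the rest. Markers of epithelial ductal cells summed to 115.7 to 2049 CPM over the 9 libraries, those of fibroblasts to 1.87 to 38.4, those of leukocytes to 0.137 to 20.5 and those of endothelium to 0.776 to 18.9. The highest epithelial, leukocyte and endothelial sums were all in Bru-seq KO C28 replicate 2, which also had the highest read density over silent genes (below). The fibroblast sum of 38.4, in BruUV-seq KO C22, held 37.9 from COL1A1. In such bulk samples, fewer cells that transcribe a gene and less RNA per cell cannot be told apart.

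A floor for the silent members was taken from 403 olfactory receptor genes, which pancreatic cells do not use. Their read density was 0.00260 to 0.00874 RPKM (reads per kilobase of gene, scaled to library size) in 7 libraries, 0.0246 in Bru-seq KO C22 replicate 1 and 0.0865 in Bru-seq KO C28 replicate 2. In that last library the leukocyte markers stood at 0.0257 (MPO) to 0.144 RPKM (CD14). Of the endothelial markers, PECAM1 stood at 0.0279, KDR at 0.0785 and CDH5 at 0.164 RPKM there. The epithelial markers ranged more widely in that library, with EPCAM at 0.133, KRT7 at 0.708, KRT8 at 11.1, KRT19 at 97.4 and KRT18 at 127.5 RPKM. Against the floor of the same library, 11 members were over 3 times as dense in all 9 libraries, 30 in at least 5 libraries, 16 in 1 to 4 and 26 in none. The 11 were MMP2, MMP14, MMP16, ADAM9, ADAM10, ADAM15, ADAM17, ADAMTS1, ADAMTS15, TIMP1 and TIMP2. Long members such as ADAMTS12, ADAMTS19, ADAMTS20 and MMP26 were over 3 times the floor in no library, although they collected enough reads to be tested. MMP26 also spans 18 other genes, and all 18 have olfactory receptor names.

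**Figure D1:**
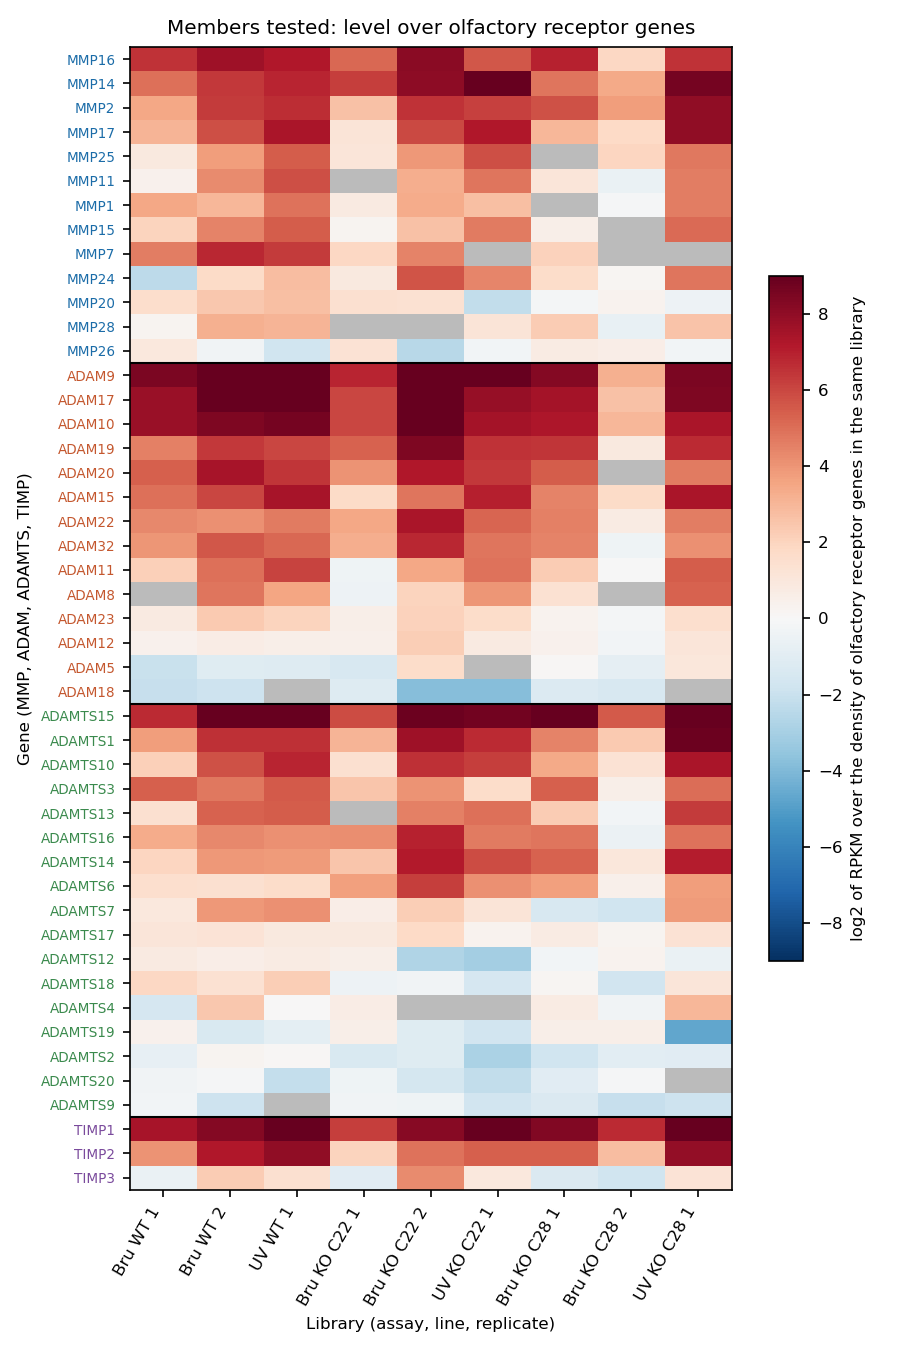
Each row is 1 of the 47 members tested and each column 1 of the 9 libraries; colour gives the log2 of RPKM over the density of olfactory receptor genes in that library, and grey marks 0 reads. The column of Bru-seq KO C28 replicate 2 is paler than the rest over most rows, and its floor of 0.0865 RPKM is the highest of the 9. ADAM9, ADAM10, ADAM17, ADAMTS15 and TIMP1 are dark in most libraries, while ADAMTS2, ADAMTS9 and ADAMTS20 lie near or under 0.

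Per length, the widely expressed sheddases were among the most transcribed members in WT cells. ADAM9 gave 2.62 and 2.06 RPKM in the WT Bru-seq libraries and ADAM17, which releases TNF and several EGF receptor ligands, gave 1.66 and 2.74. ADAM10, which cuts NOTCH receptors and cadherins, gave 1.66 and 1.40. ADAM9 lay above ADAM10 in both WT libraries, while ADAM17 overlapped both. Of the ADAMTS genes, the proteoglycan-cutting ADAMTS15 led with 0.778 and 3.31 RPKM, a spread that reaches from below ADAM10 to above ADAM9. TIMP1, a secreted inhibitor of most MMPs, followed with 1.27 and 1.26 RPKM, and TIMP2 with 0.124 and 0.595. MMP16, a membrane-type MMP, led the MMPs with 0.697 and 0.815 RPKM, below TIMP1 in both libraries. MMP7 gave 0.184 and 0.457, MMP14 0.230 and 0.346, MMP2 0.0831 and 0.317, and MMP17 0.0642 and 0.233. Within each library MMP7 and MMP14 lay above MMP2, and MMP2 above MMP17, while MMP7 and MMP14 changed places between the libraries. These 4 ranges overlap, and with 2 libraries the order of the 4 genes in WT is not settled. Next in their families came ADAM20 (0.317 and 0.714 RPKM), ADAM19 (0.174 and 0.342), ADAMTS1 (0.104 and 0.401), ADAMTS3 (0.309 and 0.110), ADAMTS10 (0.0329 and 0.224) and ADAMTS13 (0.0206 and 0.163).

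Against WT, 1 member passed in each clone, and it was the same gene, ADAMTS6. It was 17.4-fold higher in KO C22 and 7.36-fold higher in KO C28. The other members compared here are among the 30 over 3 times the floor in at least 5 libraries. In KO C22 the next highest fitted values belonged to MMP24, ADAMTS14, MMP14, ADAMTS16, ADAM19 and ADAM22. In KO C28 the fitted values of ADAMTS14 (8.42-fold) and MMP24 (7.91-fold) were above that of ADAMTS6, and those of MMP2 and TIMP1 came next below it. Apart from ADAMTS6, none of these passed. The lowest fitted value of any member in both clones was that of MMP7, which did not pass either. Calls are from edgeR's quasi-likelihood test on all 9 libraries with Benjamini-Hochberg adjustment at 0.05. By it 0.178% of the 20819 genes tested passed in KO C22 (0.125% higher and 0.0528% lower). In KO C28 0.125% passed (0.0817% higher and 0.0432% lower). The clones were compared with the same WT libraries, so their values stand side by side here and one lends no weight to the other.

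ADAMTS6 encodes a secreted protease related to ADAMTS10 and linked to fibrillin microfibrils. Its gene (hg38 chromosome 5, 65148736 to 65481920, minus strand, counted whole with exons and introns) had 184 and 111 WT reads in Bru-seq, with 69 in BruUV-seq. In KO C22 it gave 2405, 2610 and 548 reads in the same order, and in KO C28 694, 409 and 385. Scaled for library size, Bru-seq WT stood at 8.39 and 4.53 CPM, KO C22 at 129.6 and 115.4, and KO C28 at 44.1 and 50.5. BruUV-seq gave 2.90, 42.1 and 21.6 CPM in WT, KO C22 and KO C28. Every library of each clone was above every WT library, and all of KO C22 was above the matching assay of KO C28. The log2 fold change was 4.12 (SE 0.40, edgeR adjusted p = 0.00253, 3 libraries per line) for KO C22, and 2.88 (SE 0.38, edgeR adjusted p = 0.0151) for KO C28.

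The rise in KO C22 passed in 15 of 16 alternative analyses, with log2 fold changes of 3.54 to 4.68 and adjusted p from 1.25e-23 to 0.225, the highest with the Bru-seq libraries alone (4.22). In KO C28 it passed in 10 of 16, with log2 fold changes of 2.35 to 3.10 and adjusted p from 6.73e-12 to 0.657, the highest in Bru-seq alone. There it was lost without Bru-seq WT replicate 1 (adjusted p = 0.0795), Bru-seq WT replicate 2 (0.125), BruUV-seq WT (0.236) or BruUV-seq KO C28 (0.0736), and after subtraction of the olfactory receptor floor (0.0868). Without Bru-seq KO C28 replicate 2, where ADAMTS6 was 1.35 times the floor, the log2 fold change was 2.85 (adjusted p = 0.0094). In WT, ADAMTS6 was 2.71 to 3.14 times the floor. The 12 other tested genes within 500 kb of ADAMTS6 had log2 fold changes of -0.51 to 0.73 in KO C22 and -0.63 to 0.33 in KO C28.

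**Figure D2:**
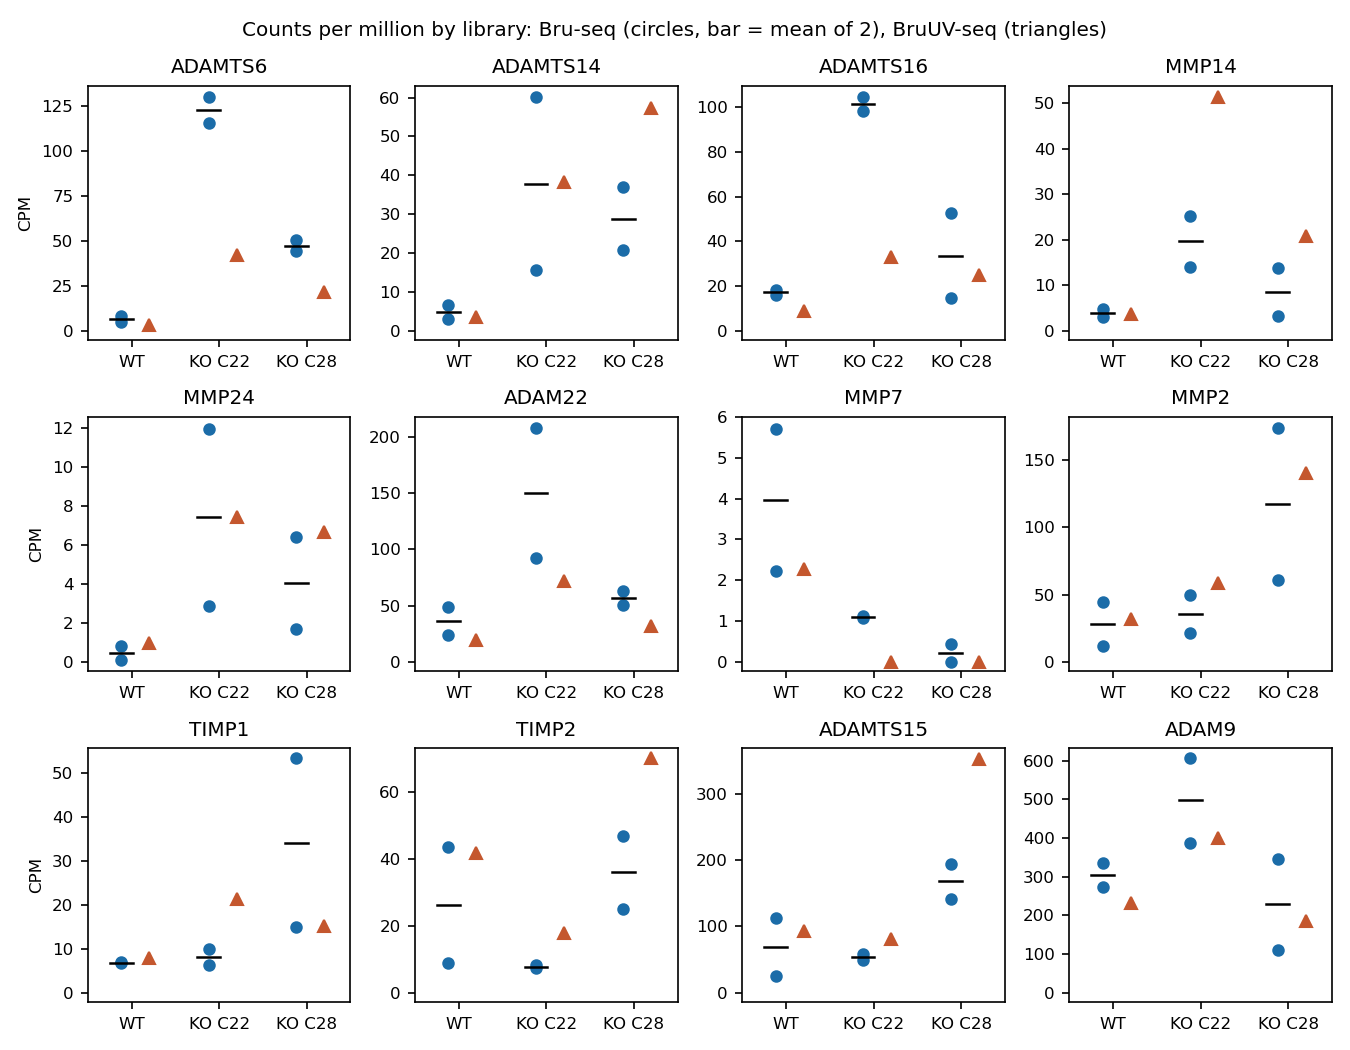
Each panel is 1 gene, with CPM on a linear axis for the 3 lines; circles are the 2 Bru-seq libraries of a line, bars their mean and triangles the BruUV-seq library. ADAMTS6 runs from 2.90 to 8.39 CPM in WT and from 21.6 to 129.6 in the clones without overlap, while TIMP1 and MMP2 are highest in the single library Bru-seq KO C28 replicate 2.

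Promoters of the members whose values the comparisons turn on are printed to show how unlike they are in base composition. They are the 250 bases before the RefSeq start on GRCh38.p14, read 5′ to 3′ along the gene, and that start lies 0, 297, 28 and 6 bases from the start in the deposited tables, in the order printed. Capitals mark the AP-1 motif TGANTCA where it occurs. ADAMTS6 (chr5:65481921-65482170, minus strand) has 8 CpG dinucleotides, ADAMTS14 (chr10:70672256-70672505, plus strand) 35, MMP14 (chr14:22836335-22836584, plus strand) 7 and MMP7 (chr11:102530748-102530997, minus strand) 3.
ADAMTS6: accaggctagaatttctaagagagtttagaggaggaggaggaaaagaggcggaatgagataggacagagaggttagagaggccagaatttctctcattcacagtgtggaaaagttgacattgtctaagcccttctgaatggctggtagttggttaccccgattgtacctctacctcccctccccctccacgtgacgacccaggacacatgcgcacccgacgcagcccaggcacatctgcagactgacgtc
ADAMTS14: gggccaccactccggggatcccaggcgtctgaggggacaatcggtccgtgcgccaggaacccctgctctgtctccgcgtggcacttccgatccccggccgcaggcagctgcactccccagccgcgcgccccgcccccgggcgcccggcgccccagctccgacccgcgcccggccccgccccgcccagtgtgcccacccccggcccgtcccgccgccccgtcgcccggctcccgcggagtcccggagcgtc
MMP14: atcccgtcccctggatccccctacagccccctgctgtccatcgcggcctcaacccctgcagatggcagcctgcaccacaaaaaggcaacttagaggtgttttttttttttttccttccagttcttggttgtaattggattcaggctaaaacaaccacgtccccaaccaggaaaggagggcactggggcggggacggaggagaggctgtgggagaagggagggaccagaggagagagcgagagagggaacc
MMP7: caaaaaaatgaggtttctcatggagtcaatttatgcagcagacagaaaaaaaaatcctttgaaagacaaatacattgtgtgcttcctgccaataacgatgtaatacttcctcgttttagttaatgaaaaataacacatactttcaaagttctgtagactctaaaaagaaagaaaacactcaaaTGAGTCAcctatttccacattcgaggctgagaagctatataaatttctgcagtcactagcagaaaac
The MMP7 window holds the AP-1 motif, 67 bases before the start, and the windows of the other 3 do not hold these letters. Promoters were matched by symbol for 39 of the 72 members. The motif, which reads the same on both strands, was in 4 of the 39 (MMP7, MMP10, MMP20 and ADAMTS12), or 10.26%, against 6.57% of all 35116 promoters in the table. The members had a median of 21 CpG dinucleotides, against 11 over all promoters. In both comparisons a member counts with 1 promoter, the one nearest its deposited start, while the other side counts every entry. The RefSeq start used for MMP26 lies 62486 bases from its deposited start. A match of letters is a description and shows no binding.

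ADAMTS14 encodes a procollagen N-propeptidase, an enzyme that trims the amino end of fibrillar procollagens, and lies on chromosome 10 (70672803 to 70762441, plus strand). It stood at 3.06 and 6.66 CPM in Bru-seq of WT with 3.49 in BruUV-seq and at 15.6, 60.1 and 38.3 in KO C22, whereas KO C28 stood at 36.9, 20.9 and 57.4. All 6 clone libraries lay above all 3 WT libraries. The log2 fold changes of 3.09 (SE 0.60) and 3.07 (SE 0.61) had edgeR adjusted p of 0.0779 in KO C22 and 0.0996 in KO C28 and did not pass. Over the alternatives adjusted p ran from 5.62e-06 to 1 in KO C22 and from 6.43e-06 to 0.728 in KO C28, with DESeq2 and the fit without a filter on low counts past the threshold in both.

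ADAMTS16, a protease studied in kidney and gonads, gave 16.2 and 18.2 CPM in Bru-seq of WT with 8.66 in BruUV-seq, against 98.1, 104.7 and 33.0 in KO C22. KO C22 was above WT in each assay. KO C28 gave 52.5, 14.5 and 25 CPM and overlapped WT in Bru-seq. The 14.5 CPM came from Bru-seq KO C28 replicate 2, where ADAMTS16 was 0.71 times the floor, against 28.55 times in replicate 1. The log2 fold changes were 2.38 (SE 0.49, adjusted p = 0.103) in KO C22 and 1.18 (SE 0.47, adjusted p = 0.468) in KO C28. The 5 other tested genes within 500 kb had log2 fold changes of 0.09 to 3.11 in KO C22 and -0.20 to 5.23 in KO C28. Their medians were 1.54 and 3.65, and 0 passed. Without Bru-seq KO C28 replicate 2, ADAMTS16 passed in KO C22 (adjusted p = 0.00581, in a range of 0.000115 to 1 over its alternatives).

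The other 2 procollagen N-propeptidases did not pass. ADAMTS3, which cuts procollagen II and the precursor of VEGFC, gave 105.6 and 38.8 CPM in Bru-seq of WT with 35.9 in BruUV-seq, and 48.4, 22.2 and 6.45 in KO C22, while KO C28 had 124.7, 46.3 and 44.8. Its log2 fold changes were -1.44 (SE 0.56) and 0.28 (SE 0.55). ADAMTS2, at 0.14 to 1.18 times the olfactory receptor density, lay near the floor in every library. Of the 5 proteoglycan-cutting ADAMTS genes tested, 0 passed in either clone by edgeR or by DESeq2, which called 1.67% and 3.42% of all genes. Unadjusted p was below 0.05 for 0 in KO C22 and for 1 in KO C28, ADAMTS15, against 5.86% and 10.5% of all genes. ADAMTS15 gave 25.5 and 111.9 CPM in Bru-seq of WT with 92.5 in BruUV-seq. It gave 49.2, 58.7 and 80.8 in KO C22, while KO C28 had 194.2, 141.6 and 352.3. The KO C28 libraries were above all of the others in their assay. ADAMTS15 had a log2 fold change of 1.51 (SE 0.50, adjusted p = 0.457) in KO C28 and of -0.30 (SE 0.49) in KO C22. ADAMTS1, which cuts versican, had 1.06 (SE 0.83) for KO C22 against WT and 1.34 (SE 0.88) for KO C28. ADAMTS13, the protease of von Willebrand factor, had -0.52 (SE 1.26) and 0.02 (SE 1.35).

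Of the MMPs, 0 of 13 tested passed in either clone by edgeR. Unadjusted p was below 0.05 for 3 in KO C22 and 5 in KO C28, against 5.86% and 10.5% of all genes. DESeq2 called MMP14 and MMP24 in KO C22 and MMP2, MMP24 and MMP7 in KO C28, where it called 1.67% and 3.42% of all genes. Of the 6 membrane-type MMPs tested, 5 had a value above 0 in KO C22 and 4 in KO C28, against 51.5% and 47.1% of all genes. Their median in KO C28 was 1.098, or 0.16 without Bru-seq KO C28 replicate 2. MMP14, the membrane-type MMP that cuts collagen at the cell surface and activates the MMP2 precursor (chromosome 14, 22836557 to 22847761, plus strand), gave 3.06 and 4.74 CPM in Bru-seq of WT with 3.61 in BruUV-seq. KO C22 gave 25.2, 14.1 and 51.4 CPM and KO C28 3.18, 13.7 and 20.9. KO C22 did not overlap WT, while Bru-seq KO C28 replicate 1 lay within WT. The log2 fold changes were 2.78 (SE 0.64, edgeR adjusted p = 0.171) and 1.52 (SE 0.61, adjusted p = 0.468). By DESeq2 its adjusted p in KO C22 was 0.00195, the lowest of 16 alternatives, whose highest was 1. The value in KO C28 was 0.96 without Bru-seq KO C28 replicate 2.

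MMP24, a membrane-type MMP best known from neurons, was scarce. In the order of Bru-seq replicates and then BruUV-seq it had 2, 20 and 23 reads in WT, 53, 271 and 97 in KO C22, with 26, 52 and 119 in KO C28. In CPM all clone libraries lay above all of WT. Log2 fold changes were 3.65 (SE 0.99, adjusted p = 0.319) in KO C22 and 2.98 (SE 0.96, adjusted p = 0.442) in KO C28. In Bru-seq KO C28 replicate 2 it was at the floor, 1.13 times the olfactory receptor density, and without that library the value in KO C28 was 2.42 (adjusted p = 0.758, in a range of 0.0267 to 0.886). Genes of higher read density on the opposite strand cover 21.01% of MMP24.

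MMP2, gelatinase A (chromosome 16, 55389700 to 55506691, plus strand), gave 11.3 and 44.4 CPM in Bru-seq of WT with 31.5 in BruUV-seq, and 21.5, 49.8 and 58.9 in KO C22, while KO C28 had 61.2, 174.2 and 140.5. KO C28 lay above both other lines in each assay, and KO C22 overlapped WT in Bru-seq. The log2 fold change of MMP2 was 2.10 (SE 0.58, adjusted p = 0.336) in KO C28 and 0.54 (SE 0.56, adjusted p = 0.993) in KO C22. In KO C28 it passed with the replicate number as a block (adjusted p = 0.0436), with DESeq2 (0.0185) and without a filter on low counts (0.000413), and reached 0.758 at the other end of its 16 alternatives. It was 1.57 without Bru-seq KO C28 replicate 2 (adjusted p = 0.709). The 11 other tested genes within 500 kb of MMP2 had values of -3.76 to 2.23 in KO C22 and -3.55 to 4.18 in KO C28. The highest in each was MMP2-AS1, and 0 passed. MMP16, the most transcribed MMP, had log2 fold changes of 0.17 (SE 0.46) and -0.07 (SE 0.46).

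MMP7, matrilysin, had 49 and 140 WT reads in Bru-seq, with 54 in BruUV-seq. KO C22 gave 21, 24 and 0 reads, and KO C28 7, 0 and 0. In CPM every clone library lay below every WT library. Summed over libraries and scaled for depth, WT over KO C22 was 4.17 (95% exact counting interval 3.02 to 5.87) and WT over KO C28 20.6 (9.85 to 51.8), intervals that cover counting error only. The edgeR log2 fold changes were -3.05 (SE 1.38, adjusted p = 0.843) and -5.05 (SE 1.51, adjusted p = 0.39), so neither passed. DESeq2 and the fit without a filter called MMP7 in KO C28, with adjusted p of 0.0151 and 0.0269 in a range reaching 0.886. MMP7 lies at one end of a cluster of 9 MMP genes on chromosome 11 (102520508 to 102955734). Without MMP7 and MMP20, the other 7 genes of the cluster together had Bru-seq counts of 28 and 14 in WT, of 37 and 10 in KO C22, and of 1 and 55 in KO C28. The 55 reads were in the library with the highest floor.

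Of the ADAMs, 0 of 14 tested passed in either clone by edgeR. Unadjusted p was below 0.05 for 4 in KO C22 and 2 in KO C28, where 5.86% and 10.5% of all genes met this, so the count in KO C28 was near the background. DESeq2 called ADAM19 and ADAM22 in KO C22 (1.67% of all genes) and ADAM5, a transcribed pseudogene, in KO C28 (3.42%). ADAM9 had log2 fold changes of 0.74 (SE 0.47) for KO C22 against WT and -0.38 (SE 0.47) for KO C28. ADAM10 had 0.29 (SE 0.39) and -0.56 (SE 0.39), and ADAM17 -0.21 (SE 0.45) and -0.80 (SE 0.45). The adjusted p of these 3 sheddases lay between 0.545 and 0.998. In CPM, Bru-seq KO C28 replicate 2 was the lowest library for all 3 in Bru-seq, at 111.6 for ADAM9, 141.5 for ADAM10 and 47.7 for ADAM17.

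ADAM19, a sheddase of neuregulin, gave 20.3 and 41.1 CPM in Bru-seq of WT with 17.8 in BruUV-seq, 116.0 and 153.7 with 64.3 in KO C22, and 88.3 and 20.4 with 49.2 in KO C28. KO C22 lay above WT in each assay. The 20.4 CPM came from Bru-seq KO C28 replicate 2, where ADAM19 was 1.84 times the floor. The log2 fold changes were 2.05 (SE 0.53, adjusted p = 0.265) and 1.06 (SE 0.52, adjusted p = 0.506). ADAM22, a receptor for LGI proteins without protease activity, gave 48.9 and 23.9 CPM in Bru-seq of WT with 19.3 in BruUV-seq, and 92.6, 208.5 and 71.6 in KO C22, while KO C28 had 62.8, 50.8 and 31.4. Both clones lay above WT in each assay. The 50.8 CPM came from Bru-seq KO C28 replicate 2, where ADAM22 was 1.68 times the floor, against 20.3 and 17.68 times in Bru-seq of WT. Its log2 fold changes were 2.00 (SE 0.42, adjusted p = 0.12) in KO C22 and 0.66 (SE 0.41, adjusted p = 0.58) in KO C28. ADAM12, another sheddase, had 1.65 (SE 0.71) and 2.09 (SE 0.73), but it was over 3 times the floor in 1 of 9 libraries; without Bru-seq KO C28 replicate 2 its value in KO C28 was 0.86. The higher values of ADAM5 (3.59, SE 1.26) and ADAM18 (3.30, SE 1.64) in KO C28 also come from genes near the floor, over 3 times it in 1 library and in 0. Both were looked up after their values were seen.

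Of the TIMPs, 0 of 3 tested passed in either clone by edgeR. Unadjusted p was below 0.05 for TIMP2 in KO C22 and TIMP1 in KO C28, against 5.86% and 10.5% of all genes. DESeq2 called TIMP1 in KO C28 alone, where it called 1.67% of all genes in KO C22 and 3.42% in KO C28. TIMP1 gave 6.75 and 6.90 CPM in Bru-seq of WT with 7.82 in BruUV-seq, and 10.02, 6.28 and 21.4 in KO C22, while KO C28 had 15.0, 53.3 and 15.3. KO C28 lay above WT in both assays, and the 53.3 CPM came from Bru-seq KO C28 replicate 2. Its log2 fold change in KO C28 was 2.00 (SE 0.64, adjusted p = 0.429), or 0.99 without that library (adjusted p = 0.943, the highest of its alternatives, whose lowest was 0.0199). TIMP2, which inhibits MMPs and also bridges MMP14 to the MMP2 precursor, gave 8.76 and 43.5 CPM in Bru-seq of WT with 41.7 in BruUV-seq. KO C22 gave 7.27, 8.18 and 17.9 CPM, below WT in each assay, and KO C28 25.03, 46.8 and 69.9. The log2 fold changes were -1.58 (SE 0.54, adjusted p = 0.571) and 0.55 (SE 0.53, adjusted p = 0.728). TIMP3, the matrix-bound inhibitor that also blocks ADAM17, was over 3 times the floor in 2 libraries, and its log2 fold changes were 1.52 (SE 1.10) and 0.34 (SE 1.10). TIMP4 had at most 3 reads in any library and was not tested. TIMP1, TIMP3 and TIMP4 lie within SYN1, SYN3 and SYN2 on the opposite strand, and of these synapsin genes only SYN2 had a higher mean read density than the TIMP gene inside it.

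**Figure D3:**
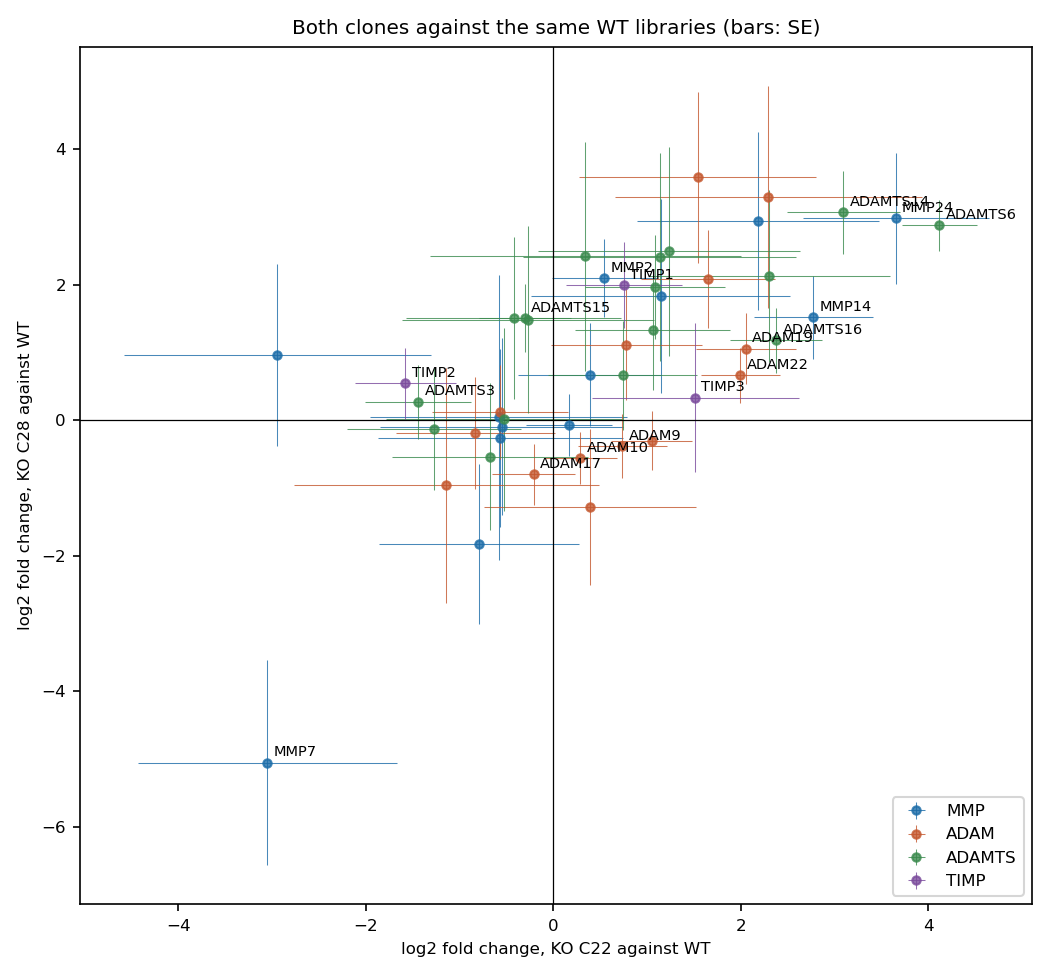
Points are the 47 members tested, with the log2 fold change of KO C22 against WT on the x axis and of KO C28 against WT on the y axis, bars for SE and colours for families. Both axes share the WT libraries. ADAMTS6 lies at 4.12 and 2.88 with bars of 0.40 and 0.38, and MMP7 at -3.05 and -5.05 with bars of 1.38 and 1.51.

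Counted as a set, more members had values above 0 than below in both clones. In KO C22, 29 of 47 had a log2 fold change above 0, against 51.5% of all genes tested, and the median was 0.54 against 0.03. Unadjusted p was below 0.05 for 12 members, 9 higher and 3 lower, where 5.86% of all genes met this (3.2% higher and 2.66% lower). Libraries did not overlap, meaning that both Bru-seq libraries of one line lay above both of the other and BruUV-seq had the same order, for 10 members higher and 3 lower, against 10.2% and 12.2% of all genes. In KO C28, 33 of 47 members were above 0, against 47.1% of all genes, with a median of 0.97 against -0.06. Unadjusted p was below 0.05 for 13 members, 12 higher and 1 lower (10.5% of all genes, 7.55% and 2.91% by direction), and libraries did not overlap for 10 higher and 3 lower (12.9% and 14%).

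The members' median in KO C28 moved with 1 library, and the part of the higher floor there was not tested. Without Bru-seq KO C28 replicate 2, 26 of 49 members were above 0 in KO C28 and the median was 0.04, against -0.005 over all genes. Subtraction of the olfactory receptor floor left 23 of 40 above 0 with a median of 0.18. The ADAMTS median in KO C28 was 1.51 over 17 genes, 0.62 without that library and 1.02 after subtraction, when 10 of 13 ADAMTS genes were above 0. ADAMTS20 went from 2.41 to -0.82, ADAMTS19 from 2.497 to 0.04 and MMP26 from 2.94 to 1.23 without the library. In KO C22, leaving out Bru-seq KO C22 replicate 1, the library with the next highest floor, changed the median from 0.54 to 0.21, with 29 of 49 above 0. ADAMTS19, at 1.24 in KO C22, became -0.08.

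**Figure D4:**
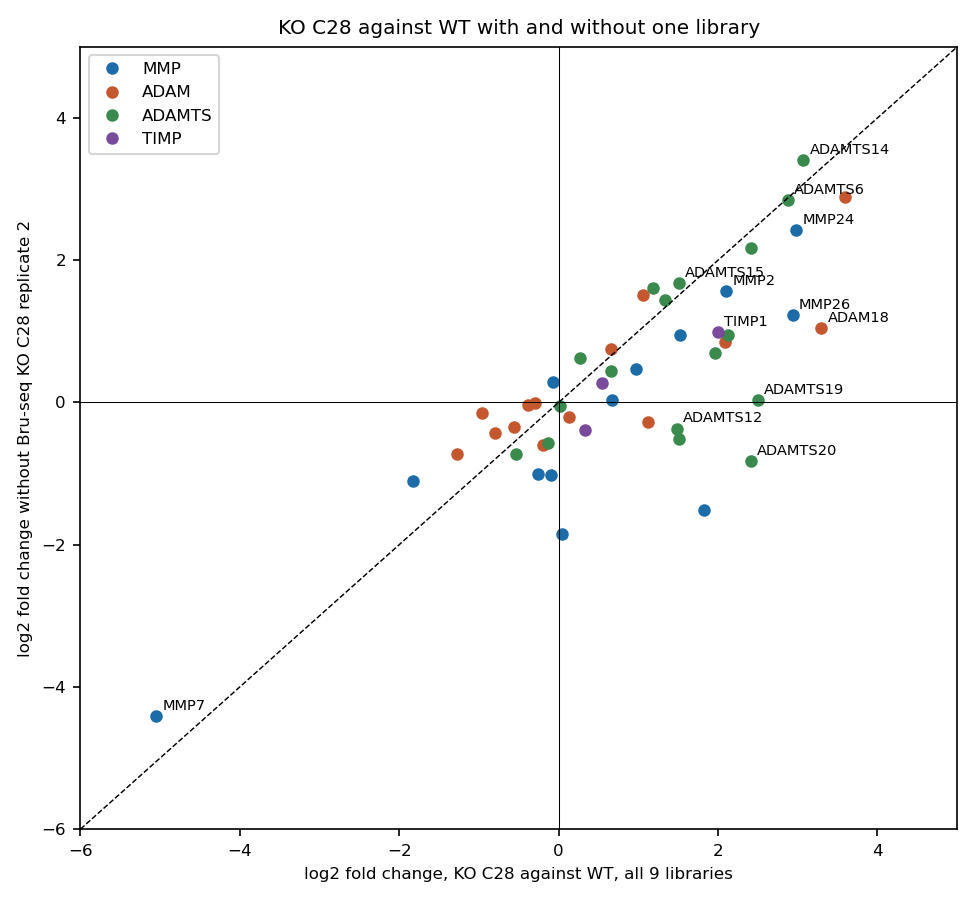
Points are members tested with and without Bru-seq KO C28 replicate 2; the x axis gives the log2 fold change of KO C28 against WT over all 9 libraries, the y axis the value without that library and the dashed line equality. ADAMTS6 (2.88 and 2.85) and ADAMTS14 (3.07 and 3.41) lie near or above the line, while ADAMTS20 (2.41 and -0.82) and ADAMTS19 (2.497 and 0.04) fall far below it.

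Set against each other, the clones gave 0 members past the threshold by edgeR. Of all 20819 genes 0 passed (0%; unadjusted p was below 0.05 for 1189, and DESeq2 called 228, or 1.1%). Among members 10 had an unadjusted p below 0.05, 5 higher and 5 lower in KO C28, against 5.71% of all genes (2.96% and 2.75% by direction), and DESeq2 called TIMP2 and ADAMTS15. TIMP2 had a log2 fold change of KO C28 over KO C22 of 2.13 (SE 0.55, edgeR adjusted p = 0.48), with all KO C28 libraries above all of KO C22 in CPM. ADAMTS15 had 1.81 (SE 0.51, adjusted p = 0.539) and MMP2 1.56 (SE 0.57, adjusted p = 0.825). ADAMTS6 had -1.24 (SE 0.36, adjusted p = 0.543), ADAM22 -1.33 (SE 0.42) and ADAM32, a gene known from testis, -1.35 (SE 0.44). Libraries did not overlap for 4 members higher and 11 lower in KO C28, against 8% and 11% of all genes. The 11 lower include ADAM9, ADAM10, ADAM17, ADAM19, ADAM20, ADAM22 and ADAM32, 7 of the 14 ADAM genes tested. Of the 47 members, 29 had a value above 0, against 50.4% of all genes; without Bru-seq KO C28 replicate 2 it was 17 of 49, and the median went from 0.34 to -0.42.

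UV light stops polymerases on the way, so BruUV-seq reads gather toward starts of genes and long genes lose reads per gene. By edgeR 0 members passed between BruUV-seq and Bru-seq, where 0.447% of all genes passed (0.427% higher and 0.0192% lower). Of the members, 18 had an unadjusted p below 0.05 and DESeq2 called 18 (18.9% of all genes). Of those at an unadjusted p below 0.05, 4 were higher and 14 lower in BruUV-seq, against 14% and 11.1% of all genes (25% in all). The BruUV-seq library lay above both Bru-seq libraries in all 3 lines for 6 members and below them for 14, against 17.9% and 8.55%. Without Bru-seq KO C28 replicate 2, 8 of 49 members passed, near the 15% of all genes that passed in the same fit, namely ADAM15 and MMP17 higher and ADAM10, ADAM32, ADAMTS3, ADAMTS6, ADAMTS16 and MMP16 lower.

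Among members with a mean of at least 50 reads in the higher assay, the 5 highest were MMP15 at 2.60 (SE 0.96), MMP17 at 2.13 (SE 0.63, adjusted p = 0.105), ADAM15 at 1.75 (SE 0.60), ADAM11 at 1.64 (SE 0.70) and ADAMTS13 at 1.60 (SE 1.07). These genes span 11.5 to 37.4 kb. MMP17 and MMP15 encode membrane-type MMPs, and MMP17 is held by a lipid anchor. The 5 lowest were ADAMTS20 (-4.17, SE 1.56), ADAMTS19 (-3.79, SE 1.46), MMP26 (-3.56, SE 1.296), ADAMTS12 (-3.24, SE 1.35) and ADAMTS17 (-2.07, SE 0.71). They span 198 to 370 kb, and each was over 3 times the floor in at most 1 library. ADAMTS6, at 333 kb, had -1.27 (SE 0.32, adjusted p = 0.0772).

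Across genes, the log2 fold change under UV correlated with gene length at a Spearman rho of -0.65 over the 47 members and of -0.47 over all 20819 genes tested, a description over genes that share the same libraries. The members' median was -0.75, against -0.03 over all genes. With an offset for the trend with length the median was -0.16, and after subtraction of the floor 0.13 over 40 members.

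**Figure D5:**
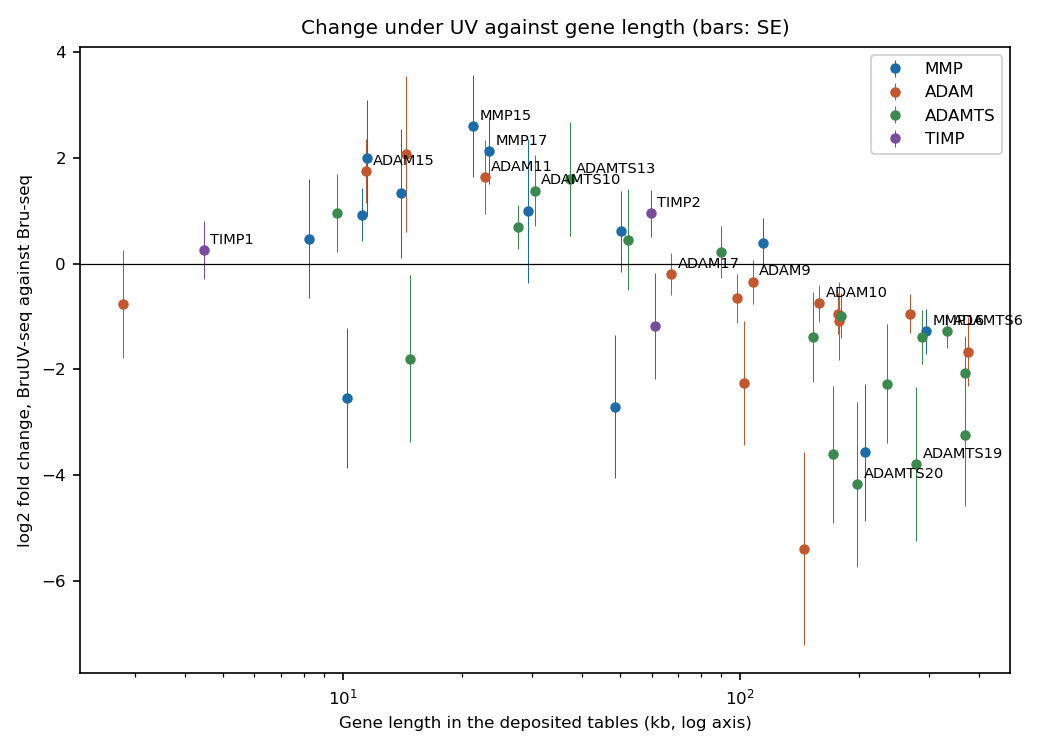
Each point is 1 of the 47 members tested, with gene length in kb on a log axis and the log2 fold change of BruUV-seq against Bru-seq with its SE on the y axis. MMP15, MMP17, ADAM15, ADAM11 and ADAMTS13 lie between 1.60 and 2.60, while the long ADAMTS20 and ADAMTS19 lie at -4.17 and -3.79.

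Other genes of the pathway came from 5 lists with 91 genes, whose counts stand beside 5.86% of all genes at an unadjusted p below 0.05 in KO C22 and 10.5% in KO C28, and 1.67% and 3.42% called by DESeq2. Among 12 tested substrates of ADAMTS proteases, edgeR called 1 in KO C22 and 0 in KO C28, with unadjusted p below 0.05 for 4 and 5 and DESeq2 calling 2 and 3. FBN1, fibrillin, the main protein of microfibrils, rose in KO C22. It gave 28.01 and 31.9 CPM in Bru-seq of WT with 14.7 in BruUV-seq, against 182.8, 307.6 and 118.3 in KO C22, while KO C28 had 109.0, 40.5 and 67.2. All clone libraries were above WT in each assay. The 40.5 CPM came from Bru-seq KO C28 replicate 2, where FBN1 stood at 0.131 RPKM and the floor at 0.0865. The log2 fold changes were 3.03 (SE 0.48, edgeR adjusted p = 0.0311) and 1.63 (SE 0.45, adjusted p = 0.339). FBN1 kept its call in KO C22 in 6 of 16 alternatives (adjusted p from 3.33e-09 to 0.994) and lost it without any 1 of the WT or KO C22 libraries. Without Bru-seq KO C28 replicate 2, FBN1 passed in KO C28 too, at 2.02 (adjusted p = 0.0316). The list's median was 1.35 in KO C22, against 0.03 over all genes, and 1.34 in KO C28, against -0.06, or 0.71 without that library. THBS1 had the highest fitted value of this list in KO C22, at 4.035 (SE 0.72, adjusted p = 0.0612), and did not pass. DESeq2 called THBS1 in KO C22, as did edgeR without Bru-seq KO C28 replicate 2. In KO C28 its value was 1.12 (SE 0.67, adjusted p = 0.566).

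Among 13 AP-1 and ETS factors known to act on MMP promoters, edgeR called 1 in KO C22 and 0 in KO C28, with unadjusted p below 0.05 for 5 and 3 and DESeq2 calling 2 in each. FOS, an AP-1 subunit, fell in KO C22. It gave 21.9 and 68.7 CPM in Bru-seq of WT with 98.7 in BruUV-seq, against 0.485, 1.24 and 12.6 in KO C22, while KO C28 had 2.41, 2.22 and 34.1. All clone libraries were below WT in each assay. Log2 fold changes were -4.97 (SE 0.77, adjusted p = 0.0287) in KO C22 and -3.55 (SE 0.72, adjusted p = 0.11) in KO C28. The call of FOS in KO C22 held in 8 of 16 alternatives (adjusted p from 3.46e-13 to 0.383) and was lost without either Bru-seq library of WT, any 1 KO C22 library or the BruUV-seq library of KO C28. Under UV, FOS (3.12, adjusted p = 0.0452), JUN (2.497, adjusted p = 0.0353) and JUNB (2.98, adjusted p = 0.0452) rose. Each of these 3 UV calls held in 6 of 15 alternatives and was lost in 9, with adjusted p up to 0.44: with RLE factors, the length offset or background subtraction, without any 1 of the BruUV-seq libraries, and without Bru-seq replicate 1 of any line.

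Of 25 tested substrates shed by ADAM10 or ADAM17, 0 passed in either clone by edgeR, while DESeq2 called 8 in KO C22 and 1 in KO C28. In KO C22, 6 were higher and 5 lower at an unadjusted p below 0.05, among them the N-cadherin gene CDH2 at 1.98 (SE 0.37, adjusted p = 0.0661) and the EGF receptor ligand genes AREG at -3.49 (SE 0.93) and EREG at -2.32 (SE 0.55). The other EGF receptor ligand genes listed differed in direction in KO C22. TGFA had -1.98 (SE 0.50), HBEGF 1.58 (SE 0.67) and BTC 0.11 (SE 1.32). In KO C28, 0 of the 25 substrates were higher and 2 lower at an unadjusted p below 0.05, with TGFA at -2.70 (SE 0.53, adjusted p = 0.0958). Of 21 tested regulators of metalloprotease activity, 0 passed in either clone by edgeR, with unadjusted p below 0.05 for 0 and 6 and DESeq2 calling 0 and 1. Of these regulators 1, RHBDF1, which helps ADAM17 to mature, rose under UV (2.74, adjusted p = 0.0374), a call lost in the same 9 of 15 alternatives as that of FOS (adjusted p up to 0.44). Of 10 tested related genes outside the naming rule, 0 passed in either clone by edgeR, with unadjusted p below 0.05 for 1 and 2 and DESeq2 calling TLL1 in both. The tolloid-like protease gene TLL1 had 1.46 (SE 0.48) in KO C22 and 2.95 (SE 0.51, adjusted p = 0.0576) in KO C28. Without Bru-seq KO C28 replicate 2, edgeR called TLL1 in KO C28, where 67 genes passed in that fit.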

How the data were processed

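Per the submitters' processing notes, the tools named are CASAVA 1.8.2, Bowtie2 2.3.3, STAR 2.5.3a and bedtools 2.16.2 and the builds hg38 and GRCh38, with no roles stated, and with the annotation release not given in the sources used here. The deposited tables, 1 per library, give 2 measures that the authors computed per gene body, an expected count and an RPKM, and coordinates were used as deposited. Whether every library was strand-specific is not settled by the labels' protocols, so reads of genes that overlap in opposite directions may be mixed. Background density was the pooled read density of olfactory receptor genes.

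Counts were rounded and fitted with edgeR 4.0.16 in R 4.3.3 over all 9 libraries (filterByExpr by line, TMM, 1 coefficient per line and 1 for the assay, quasi-likelihood F test, Benjamini-Hochberg over 20819 genes at 0.05). The biological coefficient of variation was 63.4%. Every adjusted p in the text is from that edgeR fit unless another tool or setting is named. CPM values are scaled by TMM, and SEs were derived from log2 fold change and F. Alternatives were Bru-seq alone, RLE factors, DESeq2 1.42.0, no filter, a gene length offset, the replicate number as a block, each library left out, and, added after the data were seen, subtraction of the background density. Fits were tested on simulated data. Figures used matplotlib 3.10.9 in Python 3.11.15.

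Named are the TIMPs, members that passed, the 10 largest changes per line comparison and 5 each way under UV with a mean of at least 50 reads, and the 5 highest RPKM per family in WT. Of other lists, members that passed and up to 4 of the largest changes are named. Other members are named after their values were seen. Members and lists were chosen with earlier results of these data known. Protein sequences were not used here.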

Additional observations from a re-analysis of the deposited data

How the results depend on the processing

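In order KO C22 against WT, KO C28 against WT, KO C28 against KO C22 and BruUV-seq against Bru-seq, DESeq2 called 348, 711, 228 and 3941 genes and 7, 7, 2 and 18 members, and edgeR with no filter 272, 1100, 230 and 2326 genes and 7, 9, 4 and 10 members. Bru-seq alone called 1 gene and 0 members in each clone against WT. Background subtraction called 6, 9, 2 and 0 genes, with 0 members in KO C28. RLE factors called 1 gene under UV, and the length offset 2 genes between clones and 0 under UV. Leaving out 1 library at a time called 3 to 142, 1 to 67, 0 to 18 and 0 to 3305 genes and, for members, 1 to 4 in KO C22, 0 to 1 in KO C28 and 0 to 8 under UV; each upper end came without Bru-seq KO C28 replicate 2, except that ADAMTS6 in KO C28 was lost without any of the 3 WT libraries or BruUV-seq KO C28 and kept without the others. Across genes, same-numbered Bru-seq libraries correlated at 0.956 and 0.954 for WT with KO C22. Values were 0.973 and 0.752 for WT with KO C28, and 0.96 and 0.754 for the 2 clones. Libraries of unlike number gave 0.945 and 0.901, 0.791 and 0.93, and 0.837 and 0.946 in the same order. Whether the numbers pair samples is not settled by these values. With the replicate block 49 genes and 2 members passed in KO C28 and 903 and 5 under UV.

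Signs turned for some changes that did not pass, and the cause was not tested. With the length offset these were ADAM10 (-0.051) and MMP16 (-0.41) in KO C22, ADAMTS3 (-0.029) in KO C28, and TIMP1 (-0.44), ADAM10 (0.012), ADAM9 (0.20) and ADAM17 (0.10) under UV. TIMP3 turned under UV with the block (0.53) and TIMP1 with background subtraction (-0.045). Leaving out 1 library gave, in KO C22, -0.08 to 2.35 for ADAMTS19, -0.008 to 1.09 for TIMP1, -0.47 to 0.088 for ADAM17, -0.035 to 0.37 for MMP16 and -0.73 to 0.50 for ADAMTS15. In KO C28 it gave -0.82 to 3.56 for ADAMTS20, -0.39 to 1.017 for TIMP3, -0.37 to 0.28 for MMP16 and -0.083 to 0.62 for ADAMTS3. Between clones it gave -0.51 to 5.04 for ADAMTS12, -1.93 to 2.56 for ADAMTS20, -1.26 to 2.97 for ADAMTS19 and -1.28 to 0.18 for MMP24, and under UV -0.39 to 0.87 for TIMP1. Of the named members' other alternative values, 1173 kept direction and side of the threshold, 65 gained a call and 7 lost one. Bru-seq KO C28 replicate 2 had 5.64 M reads in genes, and what depth limits was not tested.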
